A study of Mus musculus with 2 samples.

Results

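In a library of cultured mouse brain pericytes (PCs) at passage 20 (PC20), 475 of 4749 kept cells were taken as members because they gave the largest share of their UMIs (unique molecular identifiers, which tag single captured RNA molecules) to *Nfkbia*, *Cxcl10*, *Nr1d1*, *Bhlhe40* and *Cebpd*. The score of a cell was its summed UMIs of these 5 genes over all its UMIs, and the members were the top 10% of those PC20 cells in which over 1000 genes were seen and mitochondrial genes took less than 20% of UMIs. The other 4274 kept PC20 cells were the contrast, and the 9950 kept cells of a library at passage 5 (PC5) were read beside them, so that the members were 475 of 14699 kept cells in all. Both libraries held untreated primary PCs from the brain of wild-type female C57BL/6N mice aged 6 to 8 weeks, with cells of 6 mice pooled for an isolation. The study sequenced such cultures to ask how they compare with PCs in the brain, and the sources disagree on the isolations: the methods of the paper give separate ones for PC5 and PC20, whereas the deposited description mentions 1 group of 6 mice. Passage and isolation are taken here as factors that cannot be told apart. There was 1 library per passage. No test was made, and the intervals in parentheses are at the 95% level and cover counting error only.

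The 5 genes come from pathways that feed back on themselves. *Nfkbia* encodes IκBα, which holds NF-κB in the cytoplasm and is itself an NF-κB target, so that its transcript can rise with NF-κB activity. That activity was not measured here, and the transcript alone does not show it. *Cxcl10* encodes a chemokine that recruits T cells and is induced by interferons and NF-κB, and in brain vessels PCs are among the cells known to release such chemokines. *Nr1d1* (REV-ERBα) and *Bhlhe40* (DEC1) encode repressors of the circadian clock, and *Cebpd* encodes C/EBPδ, a transcription factor of the acute-phase response.

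The promoters of score genes and of 3 genes that went with the score are shown first, with the motifs of the pathways named above where they match. The sequences are from RefSeq on GRCm38.p6 and end at the base before the transcript start, so that position -1 is the last base printed. The motifs searched on both strands were κB, the RORE core (TAGGTCA), the ISRE core, the C/EBP motif (TTNNGNAA), the E-box (CACGTG), the AP-1 motif (TGANTCA), the cyclic AMP response element (TGACGTCA) and the TATA box (TATAAA), with κB and the ISRE core given by name. Capitals mark matches to the κB, ISRE core, C/EBP and E-box motifs, and neighbouring capitals can be overlapping matches. *Bhlhe40* and *Cebpd* are named only.
*Nfkbia*, chr12:55492648-55492897, minus strand: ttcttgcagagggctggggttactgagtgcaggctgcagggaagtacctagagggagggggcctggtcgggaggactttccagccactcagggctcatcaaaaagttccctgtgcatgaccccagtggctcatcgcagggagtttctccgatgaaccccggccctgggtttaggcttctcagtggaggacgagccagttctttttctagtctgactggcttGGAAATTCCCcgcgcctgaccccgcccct
*Cxcl10*, chr5:92348890-92349139, minus strand: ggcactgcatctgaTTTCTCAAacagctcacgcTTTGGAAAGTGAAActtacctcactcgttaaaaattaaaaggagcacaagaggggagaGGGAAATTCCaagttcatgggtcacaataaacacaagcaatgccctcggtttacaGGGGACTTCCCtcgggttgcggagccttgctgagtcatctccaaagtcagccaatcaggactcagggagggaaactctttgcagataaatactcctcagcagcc
*Nr1d1*, chr11:98775378-98775627, minus strand: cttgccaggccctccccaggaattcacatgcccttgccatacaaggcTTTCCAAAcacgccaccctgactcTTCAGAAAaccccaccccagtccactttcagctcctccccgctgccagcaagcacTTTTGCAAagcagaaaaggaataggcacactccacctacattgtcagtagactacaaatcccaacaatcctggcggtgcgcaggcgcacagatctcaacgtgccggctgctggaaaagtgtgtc
*Rsad2*, an interferon-stimulated gene, chr12:26456453-26456582, minus strand: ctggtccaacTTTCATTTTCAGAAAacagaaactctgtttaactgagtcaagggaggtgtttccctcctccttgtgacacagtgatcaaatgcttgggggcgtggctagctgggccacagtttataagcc
*Irf1*, an interferon regulatory factor, chr11:53769954-53770013, plus strand: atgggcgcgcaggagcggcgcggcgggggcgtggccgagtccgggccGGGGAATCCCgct
*Per1*, a clock repressor, chr11:69098769-69098948, plus strand: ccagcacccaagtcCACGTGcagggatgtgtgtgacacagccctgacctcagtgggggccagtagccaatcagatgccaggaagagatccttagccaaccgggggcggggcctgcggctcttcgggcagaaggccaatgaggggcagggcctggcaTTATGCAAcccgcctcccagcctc

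The *Nfkbia* promoter held a κB match that starts at position -29. The *Cxcl10* promoter held κB matches from -159 and, overlapping each other, from -104 and -103, and an ISRE core from -213 that overlaps a C/EBP match. It also held another C/EBP match from -236 and an AP-1 match from -74 that is not in capitals. In the *Nr1d1* promoter the matches were to the C/EBP motif, from -203, -179 and -124. *Rsad2* held an ISRE core from -120, C/EBP matches from -114 and -113 and, not in capitals, an AP-1 match from -87 and a TATA box from -10. *Irf1* held a κB match from -13, and *Per1* an E-box from -166 and a C/EBP match from -24. Of 32851 windows of 300 bases around the starts of 27025 genes, 8.46% held a κB match, 3.44% an ISRE core and 7.15% an E-box. The RORE core was in 2.61% of these windows and the cyclic AMP response element in 1.79%, and neither had a match in the printed promoters. An AP-1 match was in 7.81% of the windows, a TATA box in 13.6% and a C/EBP match in 40.7%. A C/EBP match is thus common, and each match describes letters, not binding.

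The score had no gap at the cut. The lowest member score was 10.986 and the highest score outside was 10.975 UMIs per 10000. Within 10% of the cut lay 54 members above and 75 other cells below, so the members are a range of a continuous score. A cut at a fixed share of many cells leaves little gap in any case, and whether the members form a separate cell type was not tested. The median score was 2.24 in PC20 and 1.84 in PC5, while the highest was 145 in PC20 and 61.8 in PC5. PC5 cells at or above the lowest member score numbered 46, or 0.462% (0.339 to 0.616, exact binomial). The libraries thus had similar centres, and the long upper end was seen mainly in PC20.

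**Figure D1:**
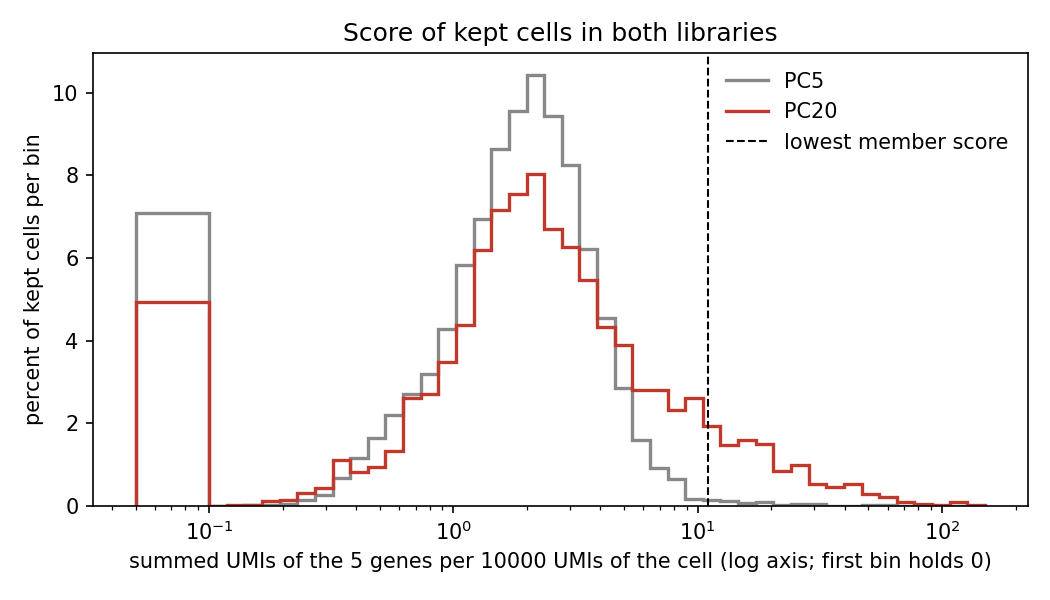
Percent of kept cells (y) by score, the summed UMIs of the 5 genes per 10000 UMIs of the cell (x, log axis, first bin for 0), in PC5 (grey) and PC20 (red). Both libraries peak at low scores, and the dashed line at 10.986 marks the lowest member score, above which few PC5 cells lie.

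The members had shallower libraries than the other PC20 cells. The median UMIs per cell were 29083 in members and 34021.5 in the others, and the median numbers of genes were 4755 and 5446. Mitochondrial genes took a median of 1.51% of UMIs in members and 2.09% in the others, and ribosomal protein genes 32.9% and 31.8%. Only 1 of the 48 cells with the most UMIs (the top 1%) was a member, no doublet caller was run, and 1 member's barcode also occurred in PC5, among 20 shared by the libraries. The part of depth in the results was not tested. Choosing the top 10% within each of 10 bins of depth kept 411 of the 475 members.

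Markers of the labelled cell type were near 0 in members and others alike. Of 8 PC markers, 3 were at 0 in all kept PC20 cells, and their summed level was 13.5 CPM (UMIs summed over cells and scaled to a total of 1000000) in members and 9.8 in others. The most abundant was *Pdgfrb*, the receptor that recruits PCs, at 7.0 CPM in members and 5.3 in others. Of the markers of other cell types, 5 lists were also near 0 in the members and 4 were not. The summed level was 0.1 CPM for endothelial, 8.4 for microglia and macrophage, 2.3 for leukocyte, 6.5 for oligodendrocyte and 4.6 for neuron markers, where the others had 0.3, 5.0, 3.1, 5.2 and 5.3. *Pecam1*, *Cd68*, *Cd14*, *Mbp* and *Tubb3* were the most abundant of these lists, and among microglia and macrophage markers 6 of 11 were at 0 in PC20. Astrocyte markers summed to 186 CPM in members and 237 in others, nearly all of it *Slc4a4*, a bicarbonate transporter, and *Gfap* and *Aqp4* had no UMI in the members. Smooth muscle markers summed to 33.3 and 51 CPM, led by *Acta2*, and fibroblast markers to 95 and 108 CPM, led by *Col3a1*. Epithelial markers had the highest sum, 1549 CPM in members and 1497 in others. It was made up of *Krt18*, at 968 and 908 CPM, *Wfdc2*, at 431 and 364, *Krt8*, at 78.7 and 100.2, and *Krt19*, at 71.4 and 125, while the epithelial adhesion genes *Cdh1* and *Epcam* had 2 UMIs and no UMI in the members. The defining leukocyte marker *Ptprc* and the microglial markers *Tyrobp*, *C1qa* and *P2ry12* had no UMI in the members.

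*Nfkbia* (ENSMUSG00000021025, chromosome 12, 55489410 to 55492647, minus strand) was at 506 CPM in members (495 to 517) and 47.2 CPM in the other PC20 cells (46.2 to 48.3). It had a UMI in 94.7% of members and in 56.3% of the others. A member had a median of 10 UMIs and at most 202. These levels, like those of the other score genes, were used to choose the members and are given as a description. Free RNA was not measured, since no cell type that lacks the score genes is in the library. In the 135 PC20 barcodes that failed the filter *Nfkbia* was at 32.6 CPM (12 to 70.9) and *Cxcl10* at 43.5 (18.8 to 85.6), intervals that lie below the members but include the level of the other PC20 cells, so that low levels outside the members and free RNA cannot be told apart.

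*Cxcl10* (ENSMUSG00000034855, chromosome 5, 92346638 to 92348889, minus strand) had the widest spread of the 5 genes within the members. It was at 685 CPM in members (672 to 698) and 22.7 in the others (22.0 to 23.4), but it had a UMI in only 35.8% of members, against 16.5% of the others. The median member had 0 UMIs of *Cxcl10* and the highest had 487. The 10 members with the most held 28.3% of its UMIs in the members. Its level thus came from a minority of members.

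*Nr1d1* (ENSMUSG00000020889, chromosome 11, 98767932 to 98775333, minus strand) was at 253 CPM in members (245 to 261) and 42.8 in the others (41.8 to 43.8). A UMI was seen in 88.2% of members and 54.7% of the others, with a median of 6 UMIs per member. The gene overlaps *Thra* on the other strand, as *Cxcl10* does *Art3* and *Cebpd* does *Spidr*, and *Bhlhe40* also overlaps a gene there. The droplet kit used keeps the strand of a transcript, but the strand setting of the counting is not given in the sources used here. *Bhlhe40* (ENSMUSG00000030103, chromosome 6, 108660629 to 108666925, plus strand) was at 302 CPM (293 to 310) in members and 65.5 (64.4 to 66.7) in the others, with a UMI in 92.4% and 74.6% of cells. *Cebpd* (ENSMUSG00000071637, chromosome 16, 15887286 to 15891031, plus strand) was at 563 CPM (552 to 575) and 98.6 (97.1 to 100), with a UMI in 90.1% and 78.3%. Unlike *Cxcl10*, these genes were seen in most members.

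Members differed in which gene made up the score. By UMIs, which are not scaled to transcript length, *Cebpd* led in 150 members, *Cxcl10* in 112, *Nfkbia* in 91, *Bhlhe40* in 61 and *Nr1d1* in 39, and 22 had ties. All 5 genes were seen in 106 members and 4 of them in 289. After each cell was thinned to 10500 UMIs, which left out 19 members and 256 others, 4 genes were seen in 53.5% of members and 5.30% of the others, and all 5 in 6.80% and 0.348%.

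The clock repressors and *Nfkbia* went together cell by cell, *Cebpd* less so, and *Cxcl10* least. Over the 4474 thinned PC20 cells, which share 1 library and 1 depth, Pearson's *r* of UMIs was 0.44 for *Nr1d1* and *Bhlhe40*, 0.43 for *Nfkbia* and *Nr1d1*, 0.42 for *Nfkbia* and *Bhlhe40*, 0.26 for *Nfkbia* and *Cebpd*, 0.20 for *Nr1d1* and *Cebpd* and 0.19 for *Bhlhe40* and *Cebpd*. For *Cxcl10* it was 0.15 with *Nfkbia*, 0.05 with *Nr1d1*, 0.02 with *Bhlhe40* and -0.03 with *Cebpd*. By Spearman's rho *Cebpd* with *Nr1d1* (0.12) and with *Bhlhe40* (0.11) were about equal to *Cxcl10* with *Nfkbia* (0.11). In 8847 thinned PC5 cells the same 10 pairs lay between -0.02 and 0.04. PC5 levels were lower for most of the genes, which limits such a correlation.

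Each gene was then read in cells chosen by the other 4. With *Nfkbia* left out of the score, the top 475 PC20 cells had 412 CPM of it against 56.2 in the rest, a log2 ratio of 2.87 (2.83 to 2.92). The same was done for *Nr1d1*, at 213 and 46.3 CPM (2.20), *Bhlhe40*, at 255 and 69.5 CPM (1.87), and *Cebpd*, at 356 and 117 CPM (1.61). *Cxcl10* had 205 and 66.6 CPM, a log2 ratio of 1.62, but a UMI in 18.3% of chosen and 18.4% of remaining cells, so its higher level lay in few cells. In PC5 the ratios were 0.19 for *Nfkbia* (0.04 to 0.34), -0.23 for *Cxcl10* (-0.50 to 0.03), 0.17 for *Nr1d1* (-0.06 to 0.39), 0.06 for *Bhlhe40* (-0.06 to 0.18) and 0.01 for *Cebpd* (-0.04 to 0.07). In PC5 4 of these intervals included 0, and the other, for *Nfkbia*, lay far below its PC20 value. When the members were chosen on one random portion of each cell's UMIs and measured on the remainder, the log2 ratios were 3.36 for *Nfkbia*, 4.77 for *Cxcl10*, 2.53 for *Nr1d1*, 2.13 for *Bhlhe40* and 2.45 for *Cebpd*. Here the same 5 genes of the same cells served for the choice and for the measure. These ratios are thus a description and not independent of the rule.

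**Figure D2:**
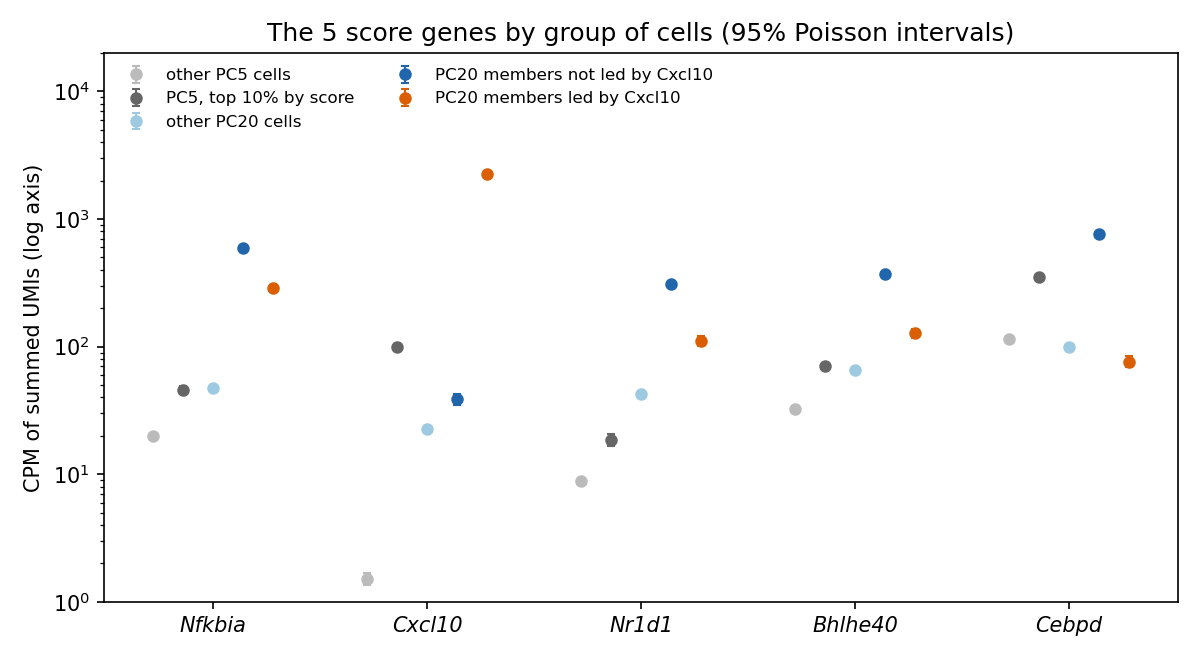
CPM (y, log axis) of the 5 score genes (x) in other PC5 cells, the top 10% of PC5 by the same score, other PC20 cells, and PC20 members not led or led by *Cxcl10*. Bars are exact 95% Poisson intervals, mostly smaller than the points, and the distance between both sorts of member in *Cxcl10* is set by the split, which used its UMIs.

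Across the transcriptome, the members were compared with the other PC20 cells over 10091 genes with a UMI in at least 10% of either group, the score genes left out. The log2 ratio was above 0.5 for 795 genes, or 7.88%, and below -0.5 for 1409 genes, or 14%, and its median was -0.12. All these ratios come from cells that the score chose, so they describe the members. Genes that reached the 10% minimum in the members alone come out higher by that rule. Of the lower calls, 161 passed a log2 ratio of -1, and 260 of the higher ones passed 1.

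Among genes of at least 20 CPM where higher, the largest ratios belonged to *Txnip*, *Ccl2* and *Irf1*. Each reached 20 CPM in the members alone, and *Ccl2* also passed the 10% detection minimum only there (4.68% of the others). Their place in this ranking thus rests in part on the filter. *Txnip*, an inhibitor of thioredoxin and of glucose uptake, was at 64.0 CPM in members and 5.22 in others, a log2 ratio of 3.62 (3.49 to 3.75), and had a UMI in 46.9% and 10.4% of cells. *Ccl2*, a monocyte chemokine, was at 51.5 and 4.69 CPM (3.46), but a UMI of it was seen in 17.7% of members and 10 members held 61.9% of its UMIs there, while 1 other cell held 341 of the 822 UMIs of the others. *Irf1* was at 69.3 and 8.72 CPM (2.99), with a UMI in 52.2% and 24.4% of cells. The selenium carrier *Selenop* had a log2 ratio of 2.97, the protease inhibitors *Wfdc3*, *Serpina3n* and *Slpi* had 2.82, 2.77 and 2.67, the lipopolysaccharide-binding protein gene *Lbp* 2.38 and the BMP antagonist gene *Nbl1* 2.29. Of these, *Selenop*, *Wfdc3*, *Serpina3n*, *Slpi* and *Lbp* passed the 10% detection minimum through the members alone, with a UMI in 4.63% to 9.05% of the others. Their place also rests in part on the filter. *Arl4d*, a small GTPase, had 2.32 and *Rsad2*, the antiviral viperin, 2.24. *Ctla2a*, a cathepsin inhibitor, was the most abundant of these 12 genes at 2663 CPM in members and 588 in others, a log2 ratio of 2.18, but its reads can be shared with a near-identical copy. Some of these genes were higher in PC5 cells as a whole than in the members. Over all kept PC5 cells *Ccl2* was at 302 CPM, *Selenop* at 275, where the members had 21.6, *Lbp* at 49.7 (28.1 in members) and *Nbl1* at 52.6 (33.5 in members). *Txnip* was at 46.1 CPM in PC5, between the members and the other PC20 cells, and *Irf1* at 16.9.

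The lowest ratios were smaller in size. *Ptx3*, a secreted pentraxin, was at 5.99 CPM in members and 23.0 in others, a log2 ratio of -1.94 (-2.25 to -1.65). The histone variant gene *H2afx* was at 23.9 and 72.4 CPM (-1.60), and *Chac1*, an enzyme that degrades glutathione, at 20.7 and 58.9 CPM (-1.51). *Crtap*, of collagen hydroxylation, had -1.35, *Zadh2* -1.29, *Tmem171* -1.26, *Zbtb8b* -1.25, the calcium-binding *Rcn2* -1.17, the phosphatase gene *Pgp* -1.17 and *Zbtb8os* -1.15. *Kcnq1ot1*, an imprinted noncoding RNA antisense to *Kcnq1*, had -1.18. *Txnrd1*, thioredoxin reductase, was the most abundant of them at 242 CPM in members and 540 in others (-1.16). In each alternative tried, the ratios of the 12 highest and the 12 lowest genes kept their sign, but their sizes did not all hold. With *Cebpd* left out of the score the log2 ratios were 1.56 for *Selenop*, 1.25 for *Wfdc3*, 1.59 for *Serpina3n*, 0.98 for *Lbp*, 1.5 for *Nbl1* and 1.30 for *Ctla2a*. *Txnip* then had 2.84, below *Ccl2* (3.24) and *Irf1* (3.08). Without the members led by *Cxcl10*, *Ccl2* had 2.27 and *Rsad2* 0.04, the latter with an interval of -0.05 to 0.12, which includes 0. In cells without UMIs of *Mki67* or *Top2a*, *Slpi* had 1.77 and *H2afx* -1.01. In the members led by *Cxcl10* themselves, the log2 ratios of *Selenop*, *Wfdc3*, *Serpina3n* and *Lbp* were -0.86 (-2.18 to 0.20), -1.05 (-2.18 to -0.12), -1.93 (-3.56 to -0.70) and -1.06 (-2.01 to -0.24).

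Genes of the NF-κB pathway were mixed. Of 13 subunits and inhibitors measured, 6 had a log2 ratio above 0.5 (7.88% of all genes) and 0 below -0.5 (14%), with a median of 0.16. This median was -0.013 with *Cxcl10* left out of the score, 0.04 without members led by *Cxcl10* and 0.32 in the top 5% of cells by score. The largest ratio of the list was that of *Tnfaip3* (A20), a feedback inhibitor, at 17.8 and 4.56 CPM in members and others (1.96). It was followed by *Nfkbiz* at 22.3 and 10.5 (1.08) and *Tnip1* at 18.1 and 9.2 (0.97). The subunits *Rela* (-0.23), *Nfkb1* (0.01) and *Nfkb2* (0.00) stayed within 0.5 of 0, while *Relb* (0.68) and *Rel* (0.62) were above it. Of 17 NF-κB target genes 7 were above 0.5 and 0 below, with a median of 0.46. The median was 0.24 without members led by *Cxcl10*, and 0.26 both when members were chosen and measured on separate UMIs and in cells without UMIs of *Mki67* or *Top2a*. *Map3k8*, a kinase, had 2.49, and *Gadd45b*, a stress gene, was at 111 and 40.6 CPM (1.45). *Sod2* (-0.19), *Tnfaip2* (-0.05) and *Csf1* (-0.42) did not share the direction.

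Of 10 chemokine and cytokine genes measured, 6 were above 0.5 (7.88% of all genes) and 0 below (14%), with a median of 1.02. Detection in 10% of either group sufficed, and a gene that passes through the members alone, as *Ccl7* did, comes out higher by that rule. The count and the median are thus partly set by the filter and are a description. The median over cells had the other order: the summed level of the list was 338 CPM in the median member and 435 in the median other cell. At the upper end, however, 89 members, or 18.7% (15.3 to 22.5), were among the top 10% of PC20 cells by it. The most abundant gene of the list was *Csf1*, a macrophage growth factor, at 288 and 386 CPM. *Ccl7*, a monocyte chemokine beside *Ccl2*, was at 16.8 and 0.593 CPM (4.83), *Cxcl1*, which draws neutrophils, at 18.2 and 3.57 (2.35), and *Ccl5* at 229 and 60.7 (1.91). *Ccl7* had a UMI in 11.6% of members, so only a few cells carried it. Genes that respond to the IL-6 family had a median of 0.66, with 5 of 9 above 0.5 and 0 below, among them *Pim1* (1.30) and *Socs3* (0.82), and the median was 0.40 with *Cebpd* left out of the score, 0.44 in the top 5% of cells by score and 1.12 in cells without UMIs of *Mki67* or *Top2a*. The median for chemokines and cytokines was 0.34 when members were chosen and measured on separate UMIs, 0.44 in thinned cells, 0.45 with *Cebpd* left out of the score and 0.42 without members led by *Cxcl10*.

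Interferon-stimulated genes had a median above that of all genes. Of 30 measured, 17 were above 0.5 (7.88% of all genes) and 0 below (14%), 29 lay above 0, and the median was 0.84 against -0.12 over all genes. *Ifit1*, which binds viral RNA, was at 347 CPM in members and 78.3 in others (2.15), *Oasl1* at 242 and 94.5 (1.36), *Ifih1*, an RNA sensor, at 66.8 and 25.2 (1.41) and *Isg15* at 431 and 275 (0.65). *Ifit3* (1.65) shares reads with *Ifit3b*. The factors *Irf7* (0.21) and *Irf9* (0.34) had smaller ratios, and *Bst2* had -0.05. Their summed level put 148 members, or 31.2% (27.0 to 35.5), among the top 10% of PC20 cells for this list. The median was 0.63 in thinned cells, 0.26 with *Cxcl10* left out of the score and 0.094 without the members led by it.

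Genes that glucocorticoids induce were mostly above 0.5. Of 13 measured, 10 were above 0.5 (7.88% of all genes) and 0 below (14%), with a median of 1.13. *Tsc22d3* (GILZ), an anti-inflammatory mediator, was at 291 CPM in members and 75.8 in others (1.94) and had a UMI in 95.4% and 79.0% of cells. *Ddit4*, an inhibitor of mTORC1, was at 207 and 56.3 (1.88), *Zbtb16* (PLZF) at 49.0 and 13.8 (1.83) and *Klf9* at 349 and 159 (1.13). The metallothionein genes *Mt1*, at 9340 and 3569 CPM (1.39), and *Mt2*, at 3996 and 2293 (0.80), bind zinc. *Fkbp5* (0.47), *Dusp1* (0.16) and *Cdkn1c* (0.06) were within 0.5. By the summed level of the list, 237 members, or 49.9% (45.3 to 54.5), were among the top 10% of PC20 cells. This sum was 14878 CPM in members and 6593 in others, most of it *Mt1* and *Mt2*. The share thus mainly ranks cells by these 2 genes and says little of the other genes in the list.

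The clock genes were mixed. Of 11 repressor and output genes beside *Nr1d1* and *Bhlhe40*, 6 were above 0.5 (7.88% of all genes) and 0 below (14%), with a median of 0.70. By their sum 219 members, or 46.1% (41.6 to 50.7), were in the top 10%. *Per1* was at 76.3 and 23.9 CPM (1.68), *Bhlhe41* (DEC2) at 182 and 64.4 (1.49), *Nfil3* at 99.1 and 44.5 (1.15), *Dbp* at 105 and 51.3 (1.03), and *Nr1d2* (REV-ERBβ) at 49.7 and 29.5 (0.75). The cryptochromes were on the other side at -0.42 for *Cry1* and -0.28 for *Cry2*. The activators *Arntl* (BMAL1), at 9.5 and 9.7 CPM (-0.04), and *Clock*, at 37.5 and 37.0 CPM (0.02), had near-equal levels, and of 4 activators measured 1, *Rora* (0.92), was above 0.5.

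Immediate-early genes were mixed, with 12 of 32 above 0.5 (7.88% of all genes), 3 below (14%) and a median of 0.34. *Klf10* (1.87), *Junb*, at 175 and 50.3 CPM (1.80), *Fos* (1.57) and the RNA-decay factor gene *Zfp36* (1.06) were higher, while *Jun* (0.02) and *Ier2* (0.04) were near 0 and *Myc* had -0.70. In the C/EBP family *Cebpb* was at 588 and 355 CPM (0.73) and *Cebpg* had 0.18, with 1 of 3 above 0.5 and a median of 0.45.

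**Figure D3:**
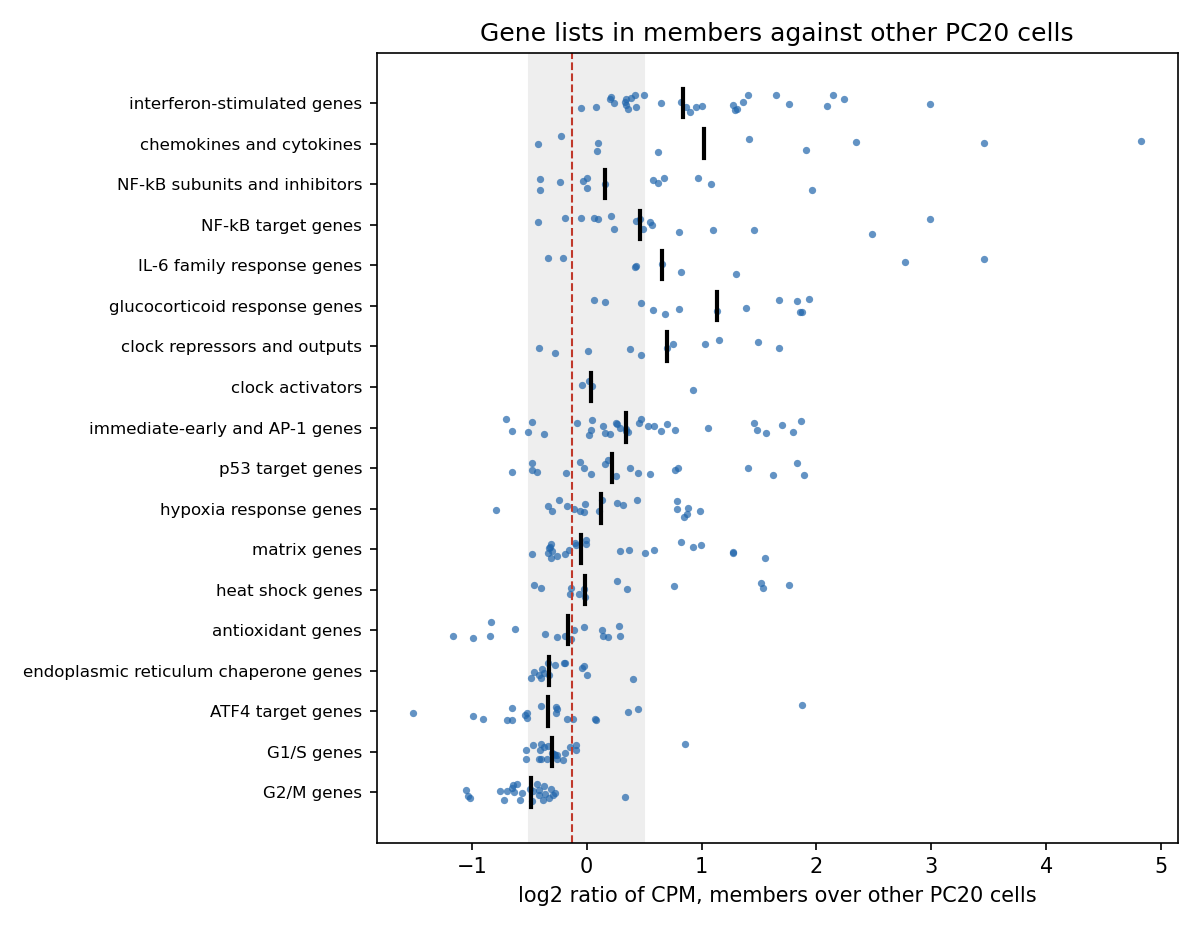
Log2 ratio of CPM (x), members over other PC20 cells, for each measured gene (points) of 18 gene lists (y), with each list's median (black bar). The grey band spans -0.5 to 0.5 and the dashed line the median of all genes, -0.12. The medians of the lists at the top lie to the right of the line and the medians of the cell cycle lists at the bottom to its left.

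G2/M genes, and ATF4 target genes by their median, were on the low side. Of 26 G2/M genes 0 were above 0.5 and 12 below -0.5, with a median of -0.48, and *Cenpe*, a mitotic kinesin, was at 45.3 and 92.9 CPM (-1.03). Of 21 G1/S genes 1 was above and 2 below, a smaller share than the 14% of all genes, with a median of -0.30, which was -0.14 with *Cebpd* left out of the score, -0.50 with *Cxcl10* left out and -0.48 without the members led by it. The proliferation genes *Mki67* or *Top2a* gave a UMI in 53.3% of thinned members (48.6 to 57.9) and 59.0% of the others (57.4 to 60.5), and unthinned in 67.8% and 72.7%. The G2/M median was -0.27 when members were chosen within 10 bins of depth and -0.08 with *Cebpd* left out of the score. Of 20 ATF4 target genes 1 was above, *Ddit4*, and 9 below, with a median of -0.33, including the cystine carrier *Slc7a11*, at 65.0 and 129 CPM (-0.99), and *Asns* (-0.69). *Ddit3* (CHOP), another of these targets, had 0.45. The summed level of the ATF4 list was near equal, at 4315 and 4352 CPM, and 80 members, or 16.8% (13.6 to 20.5), were among the top 10% of PC20 cells by it.

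Of 16 antioxidant genes 0 were above 0.5 (7.88% of all genes) and 5 below (14%), with a median of -0.16, near the -0.12 of all genes. The 5 were *Gclm* (-0.62), *Srxn1* (-0.83), *Hmox1*, at 343 and 615 CPM (-0.84), *Slc7a11* and *Txnrd1*, which are known NRF2 targets. The ferritin genes *Fth1* (0.29) and *Ftl1* (0.15) did not share this direction. The summed level of the antioxidant list was 28852 CPM in members and 26702 in others. By it 75 members, or 15.8% (12.6 to 19.4), were among the top 10% of PC20 cells. Endoplasmic reticulum chaperones had a median of -0.33 with 0 of 15 past 0.5 either way. Of 20 p53 targets 7 were above (7.88% of all genes) and 1 below (14%), with a median of 0.22. They were led by the death receptor gene *Fas* (1.90), *Sesn1* (1.83) and *Bbc3* (PUMA, 1.62), and *Cdkn1a* had 0.38.

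Of 20 hypoxia response genes 6 were above 0.5 (7.88% of all genes) and 1 below (14%), with a median of 0.12. The 6 included *Ndrg1*, at 488 and 266 CPM (0.88), and *Pfkfb3* (0.98), while the glycolysis genes *Ldha* (-0.24) and *Pgk1* (-0.02) were within 0.5. The median of the list was 0.0081 in the top 5% of cells by score. It was 0.23 without members led by *Cxcl10* and -0.24 in those members alone. Of 13 heat shock genes 4 were above (7.88% of all genes) and 0 below (median -0.02). The small chaperone gene *Hspb1* was at 729 and 215 CPM (1.76), *Hspa1a* and *Hspa1b*, near-identical copies, had 1.53 and 1.51, and *Hspd1* had -0.46.

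Matrix, contractile and YAP and TEAD target genes had medians that moved with the choice of cells. Of 24 matrix genes 8 were above 0.5 (7.88% of all genes) and 0 below (median -0.05). Among the 8 were *Spp1* (osteopontin), at 2321 and 1314 CPM (0.82), *Fn1* (0.58) and *Ogn* (1.27), while *Col4a1* (-0.10) and *Sparc* (-0.18) were not. Of 12 contractile genes 1 was above and 2 below (median -0.23), and of 15 YAP and TEAD targets 1 was above and 2 below (median -0.32), shares below -0.5 near the 14% of all genes. In the top 20% of cells by score these medians were -0.05 and -0.14, and the matrix median was -0.25 with *Cebpd* left out of the score. Of 5 nuclear long noncoding RNAs measured 0 were above and 1, *Kcnq1ot1*, was below (median 0.20). *Sox9*, a transcription factor outside the lists that was picked after its values were seen, was at 643 CPM in members and 166 in others (1.95).

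The members were then divided by whether *Cxcl10* had more UMIs than each of the other 4 genes, a split chosen after the values were seen. It gave 112 members led by *Cxcl10* and 363 not led by it. The first had a median of 37112 UMIs per cell and the second 26848, against 34021.5 in the other PC20 cells. The lower depth of the members thus lay in those not led by *Cxcl10*. The levels of the score genes in both sorts of member follow from the score and this split and are given as a description. Genes that go with *Cxcl10*, or with the other 4 genes, can divide with the split for the same reason. The differences between both sorts of member below are thus also a description. *Cxcl10* was at 2261 CPM in the first and 38.8 in the second, against 22.7 in the other PC20 cells, while *Cebpd* was at 76.5 CPM in the first, below the 98.6 of the other cells, and at 763 in the second. *Nfkbia*, at 289 and 595 CPM, and *Nr1d1*, at 111 and 311 CPM, were above the other PC20 cells in both.

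Most of the interferon difference lay in the members led by *Cxcl10*. Against the other PC20 cells, 26 of 30 interferon-stimulated genes were above 0.5 in them (5.97% of all genes were), with a median of 1.38, and 6 of 30 in the members not led by *Cxcl10* (9.73% of all genes), with a median of 0.10. *Rsad2* was at 1294 CPM in the first, with a UMI in 100% of cells, and at 96.3 CPM in the second, where the other PC20 cells had 93.9. *Ifit1* was at 986 and 84.6 CPM and *Ccl5* at 588 and 81.3 CPM. *Irf1* was higher in both, at 143 and 39.0 CPM, as was *Tnfaip3*, at 18.9 and 17.3 CPM. By the summed level of interferon-stimulated genes, 100 of the 112 but 48 of the 363 were among the top 10% of PC20 cells.

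Glucocorticoid and clock genes divided the other way. In members not led by *Cxcl10*, 11 of 13 glucocorticoid response genes were above 0.5 (9.73% of all genes), with a median of 1.40. In those led by it 3 of 13 were (5.97% of all genes), with a median of -0.08. For clock repressors and outputs the counts were 8 of 11 and 2 of 11, and the medians 0.80 and 0.13. *Txnip* was at 88.8 CPM in members not led by *Cxcl10* and 3.47 in those led by it, *Ctla2a* at 3599 and 380 CPM, *Tsc22d3* at 364 and 112, and *Hspb1* at 977 and 125. *Ctla2a* and *Hspb1* were thus lower in the members led by *Cxcl10* than in the other PC20 cells, at 588 and 215 CPM, while the log2 ratio of *Txnip* there had an interval of -1.40 to 0.12, which includes 0. *Ptx3* was at 12.4 CPM in the members led by *Cxcl10* and 3.38 in the rest.

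Matrix and cell cycle genes also divided. Of 24 matrix genes, 11 were below -0.5 in members led by *Cxcl10* (14.2% of all genes were) and 1 in those not led by it (20.3% of all genes). *Spp1* was at 878 and 2913 CPM. For G2/M genes the counts below -0.5 were 6 and 16 of 26, with medians of -0.30 and -0.62, and for G1/S genes the medians were 0.09 and -0.48. *Mki67* or *Top2a* was seen in 72.1% of thinned members led by *Cxcl10* (62.8 to 80.2) and 47.2% of the rest (41.9 to 52.7), and unthinned in 87.5% and 61.7%.

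**Figure D4:**
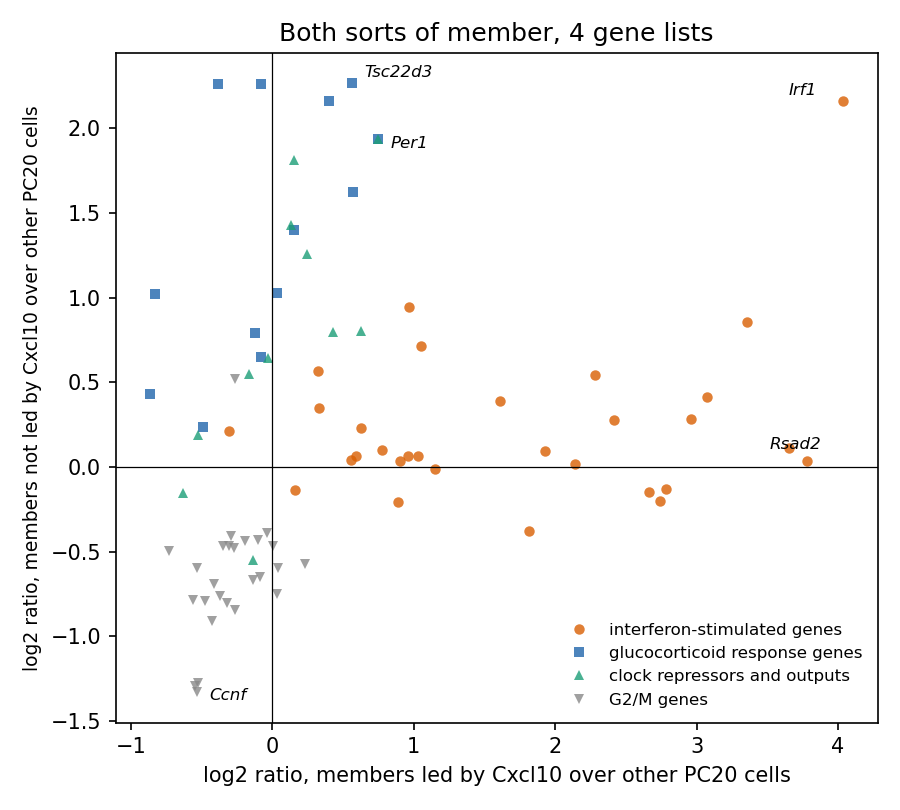
Log2 ratio over the other PC20 cells in members led by *Cxcl10* (x) and in members not led by it (y), for measured genes of 4 lists. Interferon-stimulated genes (circles) spread along x, with medians of 1.38 and 0.10, glucocorticoid response genes (squares) spread along y, with medians of -0.08 and 1.40, and *Irf1* is high on both axes.

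The genes outside the score were followed over 10 bins of PC20 cells ordered by score. The lowest bin held 474 cells and the highest was the members. *Sox9* went from 86.9 CPM in the lowest bin to 643 in the highest, *Tsc22d3* from 46.1 to 291 and *Per1* from 15.3 to 76.3, each with a graded course. *Txnip* was at most 8.12 CPM up to bin 8, 19.8 in bin 9 and 64.0 in the members, and *Irf1* was at 12.1, 19.3 and 69.3 in bins 8, 9 and 10. *Ptx3* went from 37.4 to 5.99 CPM, *Chac1* from 70.3 to 20.7 and *Txnrd1* from 598 to 242. *Arntl* stayed between 8.1 and 11.1. Bin 9, just outside the members, already had part of the difference for most of these genes.

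**Figure D5:**
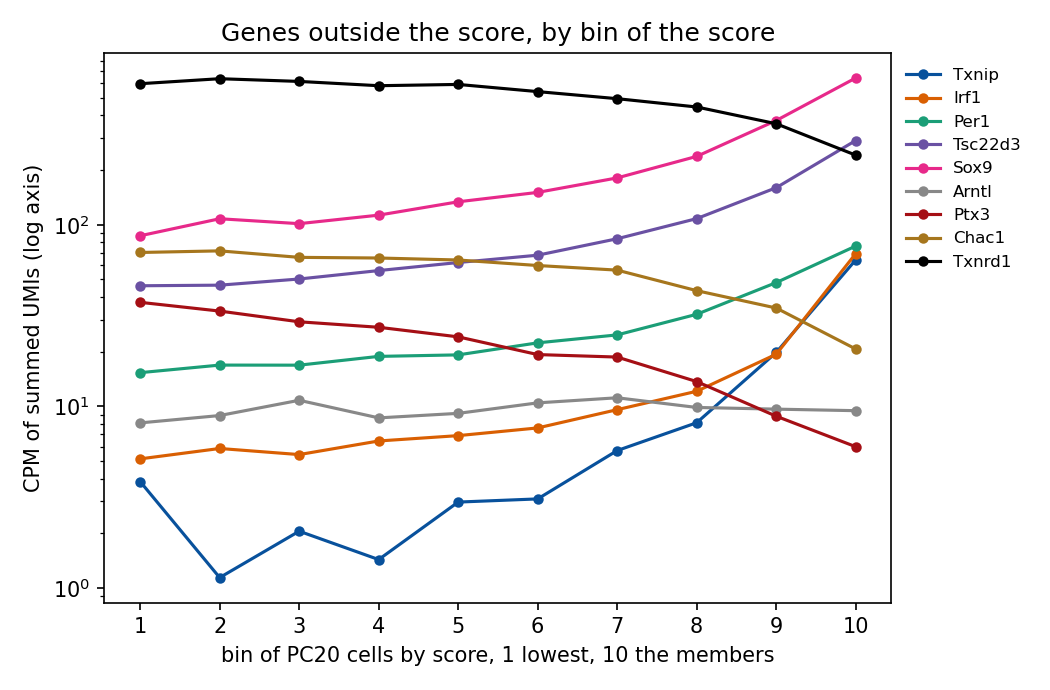
CPM (y, log axis) of 9 genes outside the score in bins of PC20 cells ordered by score (x, 10 being the members). *Sox9*, *Tsc22d3*, *Per1*, *Irf1* and *Txnip* climb to the right, *Ptx3*, *Chac1* and *Txnrd1* descend, and *Arntl* stays between 8.1 and 11.1.

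The same rule in PC5 gave 995 cells with scores from 4.03 per 10000 upward, and *Cebpd* made up most of their score. It held 60.1% of the score UMIs in these chosen PC5 cells and 24.4% in the PC20 members, while *Nr1d1* held 3.16% and 11%. Over all kept cells the shares were 63.6% in PC5 and 30.8% in PC20 for *Cebpd*, and 4.61% and 13.5% for *Nr1d1*. Over all kept cells *Cebpd* was at 133 CPM in PC5 and 137 in PC20, *Nfkbia* at 21.9 and 85.3, *Nr1d1* at 9.63 and 60.2, *Bhlhe40* at 35.4 and 85.1 and *Cxcl10* at 8.94 and 77.7. *Cebpd* was thus the gene with near-equal levels. In the chosen PC5 cells *Nfkbia* reached 45.6 CPM, *Nr1d1* 18.6, *Cxcl10* 99.8 and *Cebpd* 354.

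Fewer genes went with the score in PC5, where the choice rested on fewer UMIs. The chosen PC5 cells had a median of 16596 UMIs and 8 score UMIs per cell, and the other PC5 cells had 22321 UMIs. The PC20 members had 29083 and 58. The part of these counts in the number of genes was not tested. Of 9224 genes, 184 or 1.99% had a log2 ratio above 0.5 and 18 or 0.195% below -0.5 between chosen and other PC5 cells, with a median of 0.09. Interferon-stimulated genes had 11 of 28 above 0.5 and a median of 0.46, with *Rsad2* at 146 and 33.2 CPM (2.14) and *Ccl5* at 24.5 and 3.12 (2.97). Of 12 glucocorticoid response genes 0 were above 0.5 (median 0.21), where *Tsc22d3* was at 74.5 and 71.5 CPM, and of 9 clock repressors and outputs 1 was above, *Nfil3* (0.89), with a median of 0.30. Of the 46 PC5 cells at or above the lowest member score, 26 were led by *Cxcl10* and 18 by *Cebpd*, and their interferon median was 1.81 against 0.10 for glucocorticoid response genes. Of 8706 genes measured in both libraries, 571 were above 0.5 in PC20 and 137 in PC5, and 63 were above it in both, which is 11% of the first and 46.0% of the second. With *Cxcl10*, itself induced by interferons, left out of the PC5 score, the interferon median was 0.20, and *Rsad2* had a UMI in 38.2% of the chosen and 35.4% of the other PC5 cells by the full score, so that few cells carried its ratio. The difference between the libraries was not tested.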

How the data were processed

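Single-cell RNA sequencing of cultured PCs at passages 5 and 20 was used, with 1 library each. The authors deposited raw UMI counts for genes in barcodes, made with Cell Ranger 5.0 on mm10 and not normalized. Each library lists 31053 genes. PC5 held 223978480 UMIs in 10629 barcodes and PC20 191306354 in 4884. The filter left out 679 PC5 and 135 PC20 barcodes.

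UMIs were summed over the cells of a group and given as CPM with exact Poisson intervals. The log2 ratio of CPM has an exact conditional binomial interval and no pseudocount, and shares have Clopper-Pearson intervals, all at the 95% level. No test was made, since cells of 1 library are not replicates. A log2 ratio of 0.5 in either direction was the size used for counts. Thinning drew 10500 UMIs per cell. Doublets were neither called nor removed.

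The members and all 32 gene lists, cell type markers included, were chosen with earlier results of these data known. The genes named are the 5 score genes, list members a sentence needs, and the 12 with the largest log2 ratio in each direction among genes with a UMI in at least 10% of cells of either group and 20 CPM where higher, without pseudogenes and unnamed models. Gene positions are from GENCODE M21, which held 30934 of the genes. The comparison was tested on simulated data. Python 3.11.15, NumPy 2.4.6, SciPy 1.17.1 and pandas 2.3.3 were used. Alternatives were other shares of cells, scores, depths, filters, denominators and detection minimums, and members without those led by *Cxcl10*.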

Additional observations from a re-analysis of the deposited data

Results flagged for a closer look

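*Slc7a11*, a cystine carrier, and *Kcnq1ot1*, an imprinted noncoding RNA, had log2 ratios past 0.5 in size and opposite in sign in both libraries. *Slc7a11* was at -0.99 in PC20 members and 0.50 in the top 10% of PC5, and *Kcnq1ot1* at -1.18 and 0.51. The difference between the libraries was not tested, and 10 of 8706 genes measured in both showed such opposite signs.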

How the results depend on the processing

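No paired analysis was possible because each passage has 1 library, and spread between cultures cannot be given. The alternatives were run for the 5 score genes, the 12 highest and 12 lowest genes and some of the lists. They were not run for clock activators, the C/EBP family, nuclear long noncoding RNAs and the marker lists. Among the lists and genes that were run, no median or ratio past 0.5 in size changed sign. Of the smaller list medians that were run, 3 did. That of NF-κB subunits and inhibitors went from 0.16 to -0.013 with *Cxcl10* left out of the score. That of matrix genes went from -0.05 to at most 0.023 under several alternatives, and that of heat shock genes from -0.02 to at most 0.059 likewise. Counts of genes past 0.5 stayed within 1.5 times 795 and 1409, and were 260 and 161 past 1. List medians moved more. The causes were not tested.

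For interferon-stimulated genes the median log2 ratio of 0.84 became 0.98 in the top 5% of cells, 0.70 in the top 20%, 0.63 in thinned cells, 0.53 in cells without *Mki67* or *Top2a* UMIs, 0.26 with *Cxcl10* left out of the score and 0.094 without members led by *Cxcl10*, which was tried after seeing the data. For glucocorticoid response genes the median of 1.13 became 1.38 in the top 5%, 0.96 in the top 20%, 1.05 in thinned cells, 1.21 with equal weight of the 5 genes, 1.33 without *Cxcl10* and 1.03 without *Cebpd* in the score, 1.40 in cells without *Mki67* or *Top2a* UMIs, 1.26 as a mean over cells and 1.40 without members led by *Cxcl10*. For clock repressors and outputs 0.70 became 0.83 in the top 5% and 0.55 in cells without *Mki67* or *Top2a* UMIs.

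For G2/M genes -0.48 became -0.62 in the top 5%, -0.27 within bins of depth, -0.31 with equal weight, -0.63 without *Nfkbia*, -0.66 without *Cxcl10* and -0.076 without *Cebpd* in the score, -0.37 when chosen and measured on separate UMIs, -0.17 in cells without *Mki67* or *Top2a* UMIs and -0.62 without members led by *Cxcl10*. In PC5, taking the 46 cells at or above the lowest member score in place of the top 10% moved the interferon median from 0.46 to 1.81 and the glucocorticoid median from 0.21 to 0.10. Leaving *Cxcl10* out of the PC5 score, tried after seeing the data, gave 0.20 and 0.22.

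Over all alternatives the median of hypoxia response genes (0.12) lay between 0.0081 and 0.23, of p53 targets (0.22) between 0.15 and 0.35, of immediate-early genes (0.34) between 0.27 and 0.51, of antioxidant genes (-0.16) between -0.23 and -0.12 and of ATF4 targets (-0.33) between -0.45 and -0.31.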

Other observations

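The 135 PC20 barcodes that failed the filter had 32.6 CPM of *Nr1d1* (6 UMIs), 65.2 of *Bhlhe40* (12 UMIs) and 114 of *Cebpd* (21 UMIs), and the upper limits of their intervals, the highest being 174 CPM for *Cebpd*, were below the levels in the members.

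Among the genes with opposite signs in both libraries were also *G0s2*, a lipolysis inhibitor, at -1.50 in PC20 and 0.78 in PC5, *Thbd* (thrombomodulin) at -1.13 and 0.51 and *Apold1* at -0.68 and 0.81. They were picked after their values were seen.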
